A study of Mus musculus with 16 samples.

Results

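Brown fat burns fuel to make heat, and a layer of fat of this kind surrounds much of the mouse aorta. The 10 genes described here were chosen by name as genes of that program: Ucp1, Cidea, Dio2, Ppargc1a, Elovl3, Prdm16, Cpt1b, Adrb3, Kng2 and Otop1. All 10 were found among the 54532 genes of the deposited tables, and all 10 passed the filter on low counts in every comparison.

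The tables hold RNA sequencing of whole aortas from 16 C57BL/6J mice, 1 library per mouse and 4 mice per group, all males that were 12 weeks old at surgery. Sham mice underwent the procedure without kidney ligation or removal and were then fed a high-phosphate, low-protein diet (HPi-Lp) of 2% phosphorus and 2.5% protein. The other 3 groups underwent subtotal nephrectomy (5/6 Nx), in which most kidney tissue is lost, as a model of chronic kidney disease. The 5/6 Nx-HPi-Lp mice ate the same diet as the Sham mice, the 5/6 Nx-HPi-Hp mice a diet of 2% phosphorus and 18% protein, and the 5/6 Nx-LPi-Lp mice a diet of 0.3% phosphorus and 2.5% protein. Diets lasted 30 days according to the labels. Against Sham mice, the 5/6 Nx-HPi-Lp group differs by surgery alone, whereas the 5/6 Nx-LPi-Lp and 5/6 Nx-HPi-Hp groups differ by surgery and diet together, which cannot be told apart.

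Noradrenaline from sympathetic nerves acts on beta-adrenergic receptors of brown adipocytes, chiefly the one encoded by Adrb3, and raises cyclic AMP. That signal releases fatty acids from lipid droplets and switches on Ucp1, whose protein lets protons leak across the inner mitochondrial membrane so that respiration makes heat, and it also induces Dio2 and Ppargc1a. Prdm16 and Ppargc1a are regulators of the brown adipocyte program, and Elovl3, Cidea and Cpt1b act in its lipid metabolism. In a bulk library, fewer brown adipocytes and less RNA per brown adipocyte cannot be told apart.

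Several libraries stood apart. Totals ranged from 13659525 to 57276915 counts, and 5/6 Nx-HPi-Lp mice 2 and 3 had the 2 highest. The summed heart muscle markers (5 of 5 detected in every group) were 6286 CPM (reads of a gene scaled to the total of its library) in 5/6 Nx-LPi-Lp mouse 2, 800.2 in 5/6 Nx-HPi-Hp mouse 1 and 448 in 5/6 Nx-HPi-Hp mouse 2, against at most 137 in the other libraries. The 7 skeletal muscle markers summed to 382 CPM in 5/6 Nx-LPi-Lp mouse 2 and 237 CPM in 5/6 Nx-LPi-Lp mouse 4, against at most 84.0 elsewhere. The 11 sympathetic neuron markers summed to 1899 and 1417 CPM among 5/6 Nx-HPi-Lp mice 1 and 4, against at most 383 elsewhere. The 6 smooth muscle markers ranged from 21665 to 25737 CPM in Sham mice and from 2223 to 5034 CPM among 5/6 Nx-HPi-Lp mice. Mitochondrially encoded genes took 4.18 to 6.34% of the counts in Sham libraries and 9.50 to 29.0% in the 12 nephrectomized libraries, with no overlap, so every change against Sham mice moves with that share. With these genes left out, 5 of the 10 genes were called in 5/6 Nx-HPi-Lp against Sham mice in place of 4, and the count of calls was the same in the other 5 comparisons. The part of these shares and mixtures in the results was not tested beyond the values given beside each result.

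Promoter sequences are shown for the cold-induced pair Ucp1 and Dio2, picked after their values were seen. Cyclic AMP acts through CRE motifs, and no link between motifs and levels was tested. RefSeq (GRCm38.p6, the build the authors call mm10) held promoters of 6 of the 10 genes, each from 250 bases before to 50 bases after the start site. Motifs searched were the CRE half-site TGACG and the nuclear receptor half-site AGGTCA on both strands and TATAAA on the gene's strand. Capitals below mark every match, at chr8:83290098-83290397 (plus strand) for Ucp1 and chr12:90738989-90739288 (minus strand) for Dio2. The Dio2 window lies beyond the end of the counted gene model, at 90738438.
Ucp1: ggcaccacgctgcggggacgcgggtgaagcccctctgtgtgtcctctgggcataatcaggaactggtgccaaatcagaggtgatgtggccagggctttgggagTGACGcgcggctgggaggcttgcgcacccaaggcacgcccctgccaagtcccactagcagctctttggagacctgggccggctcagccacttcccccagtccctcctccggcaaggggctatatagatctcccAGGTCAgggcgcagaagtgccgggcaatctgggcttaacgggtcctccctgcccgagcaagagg
Dio2: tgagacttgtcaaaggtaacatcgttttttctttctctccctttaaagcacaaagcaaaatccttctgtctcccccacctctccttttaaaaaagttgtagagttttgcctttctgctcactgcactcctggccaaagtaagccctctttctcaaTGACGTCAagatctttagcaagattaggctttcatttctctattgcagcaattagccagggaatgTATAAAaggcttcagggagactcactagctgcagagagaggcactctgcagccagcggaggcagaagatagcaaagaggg
Ucp1 held TGACG 147 bases before the start site and AGGTCA 14 bases before it. In Dio2 the forward and reverse half-sites overlapped to give TGACGTCA, starting 95 bases before the start site, and TATAAA began 30 bases before it. Ppargc1a held 1 TGACG match, Kng2 held 1 AGGTCA match, and Prdm16 and Otop1 held none. Of all 32851 mouse promoters in the table, 20.8% held TGACG, 16.3% held AGGTCA and 8.32% held TATAAA.

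Length-scaled levels (FPKM) put Ucp1 first and Cidea next in every group. In Sham mice Ucp1 averaged 210.3 ± 71.4 FPKM (SD, n = 4) and Cidea 94.2 ± 33.2 FPKM. Elovl3 followed at 18.4 ± 6.26, Prdm16 at 10.1 ± 1.98, Adrb3 at 6.89 ± 1.67 and Otop1 at 5.44 ± 1.53 FPKM. Dio2 and Kng2 stood level at 3.16 ± 1.49 and 3.15 ± 0.988 FPKM, and Ppargc1a (0.660 ± 0.111) and Cpt1b (0.380 ± 0.123) were lowest. The ranges of neighbours in this order overlapped, except between Cidea and Elovl3, between Kng2 and Ppargc1a and between Ppargc1a and Cpt1b. In 5/6 Nx-LPi-Lp mice Ucp1 reached 1148 ± 601 FPKM and Cidea 559 ± 309 FPKM, and Elovl3 came next at 108 ± 68.6 FPKM. Among 5/6 Nx-HPi-Lp mice Prdm16 averaged 3.09 ± 0.798 FPKM, below Dio2 at 18.4 ± 9.75 FPKM.

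**Figure D1:**
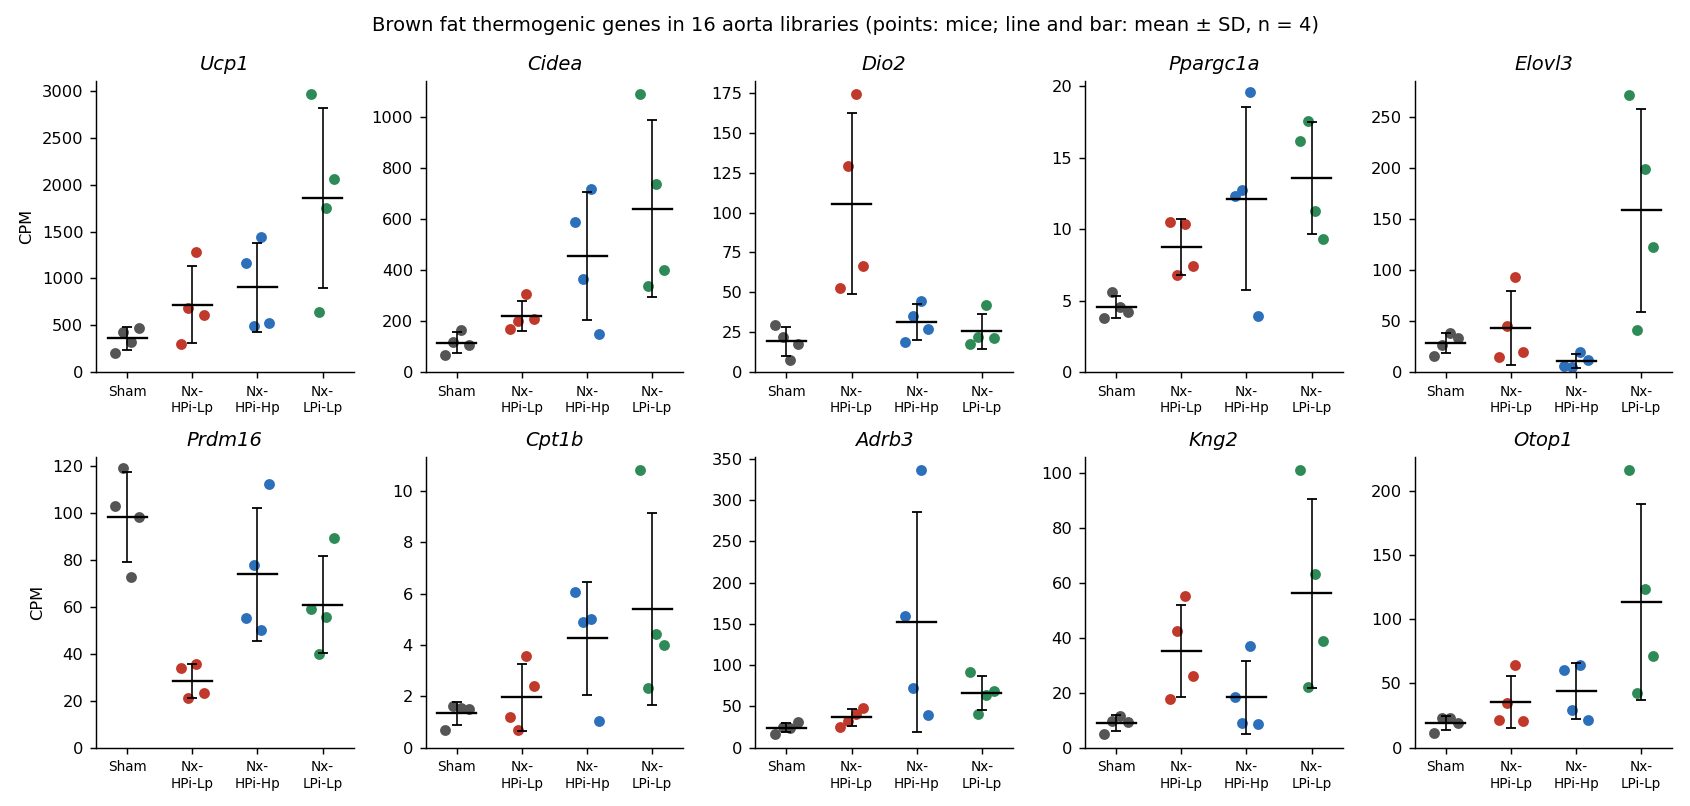
Levels in CPM (linear axis from 0) of the 10 genes, with 1 point per mouse, a line at the mean and a bar of 1 SD for each group of 4. Ucp1, Elovl3 and Otop1 had their highest means in 5/6 Nx-LPi-Lp mice, Dio2 in 5/6 Nx-HPi-Lp mice and Adrb3 in 5/6 Nx-HPi-Hp mice, and Prdm16 was lowest in 5/6 Nx-HPi-Lp mice.

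Ucp1 (ENSMUSG00000031710, chr8:83290352-83298452) defines thermogenic fat. Its levels were 205, 431, 325 and 473 CPM in the Sham mice and 300.1, 688, 1279 and 609.7 CPM among 5/6 Nx-HPi-Lp mice. They were 1163, 490.3, 1443 and 523 CPM among 5/6 Nx-HPi-Hp mice and 2970.1, 644, 1757 and 2057 CPM among 5/6 Nx-LPi-Lp mice. Every 5/6 Nx-LPi-Lp and 5/6 Nx-HPi-Hp library lay above every Sham library, whereas 5/6 Nx-HPi-Lp mouse 1 lay within the Sham range. By the edgeR quasi-likelihood test with Benjamini-Hochberg adjustment over all genes, the log2 fold change against Sham mice was 2.46 ± 0.43 (SE) in 5/6 Nx-LPi-Lp mice (adjusted p = 0.00402) and 1.41 ± 0.40 in 5/6 Nx-HPi-Hp mice (adjusted p = 0.0265). For 5/6 Nx-HPi-Lp mice it was 1.05 ± 0.40 and missed the threshold (adjusted p = 0.0566). That comparison passed once 5/6 Nx-HPi-Lp mouse 1 was left out (adjusted p = 0.00966). The 5/6 Nx-HPi-Hp call was lost without Sham mouse 1, 2 or 3 or 5/6 Nx-HPi-Hp mouse 1 or 3 (adjusted p from 0.0588 to 0.0686).

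Cidea (ENSMUSG00000024526, chr18:67343564-67367794) encodes a lipid droplet protein abundant in brown fat. The Sham libraries held 66.6, 118, 165 and 108 CPM, and the 5/6 Nx-HPi-Lp libraries 169, 199.96, 306 and 207 CPM. The 5/6 Nx-HPi-Hp libraries held 588, 363, 719 and 148 CPM, and the 5/6 Nx-LPi-Lp libraries 1089.5, 337, 737 and 399.8 CPM. All 5/6 Nx libraries but 5/6 Nx-HPi-Hp mouse 4 exceeded all Sham libraries. Cidea rose against Sham mice by 2.57 ± 0.40 on the log2 scale in 5/6 Nx-LPi-Lp mice (edgeR adjusted p = 0.00344), by 2.07 ± 0.46 in 5/6 Nx-HPi-Hp mice (adjusted p = 0.0125) and by 1.00 ± 0.26 in 5/6 Nx-HPi-Lp mice (adjusted p = 0.0123). The last sat at the fold threshold and fell below it without Sham mouse 1, 2 or 4 or 5/6 Nx-HPi-Lp mouse 3. Cidea was lower in 5/6 Nx-HPi-Lp than in 5/6 Nx-LPi-Lp mice, with a log2 fold change of -1.54 ± 0.37 (edgeR adjusted p = 0.0209) and no overlap of the groups. That call was lost without 5/6 Nx-HPi-Lp mouse 4 or 5/6 Nx-LPi-Lp mouse 3 (adjusted p = 0.0632 and 0.0567).

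Elovl3 (ENSMUSG00000038754, chr19:46131897-46135307), an elongase of very long chain fatty acids that brown fat induces in the cold, lay on opposite sides of its Sham level in 2 of the groups. Its Sham levels were 16.03, 26.5, 38.3 and 33.7 CPM. Mice of the 5/6 Nx-LPi-Lp group had 272, 41.2, 199 and 122 CPM, all above the Sham range, and mice of the 5/6 Nx-HPi-Hp group had 6.40, 4.82, 19.7 and 12.2 CPM, with 3 of the 4 below it. Mice of the 5/6 Nx-HPi-Lp group spanned both, at 14.8, 45.4, 93.2 and 19.7 CPM. Against Sham mice Elovl3 rose by 2.56 ± 0.50 (log2) in 5/6 Nx-LPi-Lp mice (edgeR adjusted p = 0.00587) and fell by 1.34 ± 0.42 in 5/6 Nx-HPi-Hp mice (log2 -1.34, adjusted p = 0.0373). The fall lost its call without Sham mouse 2, 3 or 4 or without 5/6 Nx-HPi-Hp mouse 1 or 2 (adjusted p from 0.0738 to 0.0886). For 5/6 Nx-HPi-Lp mice the value was 0.65 ± 0.52 (adjusted p = 0.338), and it turned to -0.02 without mouse 3 of that group.

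Cpt1b (ENSMUSG00000078937, chr15:89416405-89425863), the muscle and brown fat form of the enzyme that admits fatty acids to mitochondria, had only 18 to 200 counts per library. Its levels ran from 0.694 to 1.62 CPM in Sham mice, from 0.681 to 3.58 in 5/6 Nx-HPi-Lp mice, from 1.04 to 6.08 in 5/6 Nx-HPi-Hp mice and from 2.32 to 10.8 CPM among 5/6 Nx-LPi-Lp mice. It rose in 5/6 Nx-LPi-Lp mice (log2 fold change 2.10 ± 0.48, edgeR adjusted p = 0.0102) and in 5/6 Nx-HPi-Hp mice (1.75 ± 0.51, adjusted p = 0.0295). Heart muscle also expresses Cpt1b, and without the 3 libraries rich in heart markers the values were 2.35 (adjusted p = 0.00627) and 1.24 (adjusted p = 0.210). The fit of 5/6 Nx-HPi-Hp against Sham mice without those libraries called only 6 of all 16821 genes tested. The Cpt1b call in 5/6 Nx-HPi-Hp mice was also lost on leaving out any single library but that of 5/6 Nx-HPi-Hp mouse 4 (adjusted p from 0.0606 to 0.0778). Of its 3372 exonic bases, 2744 are shared on the same strand with the gene model Gm44502, which held 0 counts, so its count may be too low.

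Dio2 (ENSMUSG00000007682, chr12:90724552-90738438) encodes the deiodinase that makes active thyroid hormone inside brown adipocytes, and it is also made outside fat. The Sham mice had 29.6, 21.9, 7.80 and 17.5 CPM, the 5/6 Nx-HPi-Hp mice 18.6, 35.2, 44.6 and 26.8 CPM, and the 5/6 Nx-LPi-Lp mice 17.6, 22.0, 41.9 and 21.3 CPM. Mice of the 5/6 Nx-HPi-Lp group had 52.5, 129, 174 and 66.4 CPM, above all 12 other libraries. Dio2 rose against Sham mice by 2.51 ± 0.46 on the log2 scale (edgeR adjusted p = 0.00196), and it was higher than in 5/6 Nx-LPi-Lp mice by 2.05 ± 0.42 (adjusted p = 0.0111) and than in 5/6 Nx-HPi-Hp mice by 1.75 ± 0.40 (adjusted p = 0.0225). In the other 2 nephrectomized groups the values against Sham mice were 0.78 ± 0.38 and 0.51 ± 0.38 and missed the threshold (adjusted p = 0.137 and 0.335). The call against Sham mice held under every alternative run. Without 5/6 Nx-HPi-Lp mice 2 and 3 the call against 5/6 Nx-LPi-Lp mice was lost (log2 1.19, adjusted p = 0.0537). The call against 5/6 Nx-HPi-Hp mice was lost without 5/6 Nx-HPi-Lp mouse 3 (adjusted p = 0.0536) and without 5/6 Nx-HPi-Hp mouse 1 or 2 (0.0516 and 0.0633). The libraries with the most Dio2, 5/6 Nx-HPi-Lp mice 2 and 3, were also the deepest. Fibroblast markers summed to 4258 to 19051 CPM over the 5/6 Nx-HPi-Lp libraries and to 1269 to 4155 CPM over the other 12, with the highest sum in 5/6 Nx-HPi-Lp mouse 2. Their part in the Dio2 result was not tested.

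Adrb3 (ENSMUSG00000031489, chr8:27225776-27250616), the beta3-adrenergic receptor of adipocytes, held 16.9, 25.1, 24.2 and 30.9 CPM in Sham mice and 25.2, 32.0, 41.1 and 48.4 CPM among 5/6 Nx-HPi-Lp mice. It held 159, 72.4, 336 and 39.5 CPM among 5/6 Nx-HPi-Hp mice and 91.6, 40.7, 63.7 and 68.7 CPM among 5/6 Nx-LPi-Lp mice. The last 2 groups lay wholly above Sham mice, and the 5/6 Nx-HPi-Hp mice differed among themselves by more than any other group. Adrb3 rose against Sham mice by 2.73 ± 0.58 (log2) in 5/6 Nx-HPi-Hp mice (edgeR adjusted p = 0.0114) and by 1.54 ± 0.25 in 5/6 Nx-LPi-Lp mice (adjusted p = 0.00346). For 5/6 Nx-HPi-Lp mice the value was 0.65 ± 0.23, under the fold threshold (adjusted p = 0.0420). Adrb3 was lower in 5/6 Nx-HPi-Lp than in 5/6 Nx-HPi-Hp mice (log2 -2.05 ± 0.57, adjusted p = 0.0415), a call lost on leaving out any one 5/6 Nx-HPi-Lp mouse or 5/6 Nx-HPi-Hp mouse 1, 2 or 3 (adjusted p from 0.0579 to 0.0912). An antisense gene, Gm45470, covers 24.9% of its exonic bases. The counting options for strand were not stated.

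Ppargc1a (ENSMUSG00000029167, chr5:51454250-51567726), the coactivator PGC-1alpha that drives mitochondrial genes, was low in every library. It measured 3.81, 5.59, 4.56 and 4.19 CPM in Sham mice and 10.5, 6.77, 10.3 and 7.42 CPM among 5/6 Nx-HPi-Lp mice. It measured 12.3, 12.7, 19.6 and 3.94 CPM among 5/6 Nx-HPi-Hp mice and 16.2, 17.6, 11.3 and 9.33 CPM among 5/6 Nx-LPi-Lp mice. Only 5/6 Nx-HPi-Hp mouse 4 among the nephrectomized mice fell within the Sham range. Ppargc1a rose by 1.68 ± 0.23 (log2) in 5/6 Nx-LPi-Lp mice (edgeR adjusted p = 0.00320) and by 1.499 ± 0.404 in 5/6 Nx-HPi-Hp mice (adjusted p = 0.0222). Leaving out any one Sham mouse or 5/6 Nx-HPi-Hp mouse 3 took away the second call (adjusted p from 0.0521 to 0.0633). Without the libraries rich in heart markers, the edgeR value was 1.52 in 5/6 Nx-LPi-Lp mice (adjusted p = 0.00398). In 5/6 Nx-HPi-Hp mice it was then 1.44, and the call was lost (adjusted p = 0.122), in a fit that called only 6 of all 16821 genes tested. The part of heart RNA in these values was not tested. For 5/6 Nx-HPi-Lp mice the log2 fold change rounded to 1.00 ± 0.23 but fell just short of the threshold of 1 (adjusted p = 0.00603), and it passed without Sham mouse 2 or 5/6 Nx-HPi-Lp mouse 2 or 4.

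Prdm16 (ENSMUSG00000039410, chr4:154316125-154636873), the transcriptional regulator that sets brown against muscle fate and is also made by cells of the artery wall, went the other way. It measured 103, 119, 72.5 and 98.1 CPM in Sham mice and 34.1, 21.0, 35.4 and 23.2 CPM among 5/6 Nx-HPi-Lp mice, below all 12 other libraries. Mice of the 5/6 Nx-HPi-Hp group had 55.4, 77.6, 50.02 and 112 CPM and the 5/6 Nx-LPi-Lp mice 58.9, 39.9, 55.5 and 89.1 CPM, both overlapping the Sham range. Prdm16 fell against Sham mice by 1.74 ± 0.21 (log2 -1.74, edgeR adjusted p = 0.000204), a call that held under every alternative run. It was lower in 5/6 Nx-HPi-Lp than in 5/6 Nx-HPi-Hp mice (log2 -1.37 ± 0.28, adjusted p = 0.0150) and than in 5/6 Nx-LPi-Lp mice (log2 -1.09 ± 0.26, adjusted p = 0.0190). Without 5/6 Nx-HPi-Lp mouse 4 these calls were lost (adjusted p = 0.0553 and 0.0654), and the second was also lost without 5/6 Nx-HPi-Lp mouse 2 or 5/6 Nx-LPi-Lp mouse 4. All 6 smooth muscle markers also fell in 5/6 Nx-HPi-Lp mice against Sham mice, with a median log2 change of -2.82. The 5/6 Nx-HPi-Hp library with the most Prdm16, that of mouse 4, had the highest smooth muscle sum of its group at 23205 CPM. The part of smooth muscle in the Prdm16 result was not tested.

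Kng2 (ENSMUSG00000060459, chr16:22985854-23029482) encodes a kininogen, the precursor of the vasoactive kinins. It measured 5.01, 9.92, 11.6 and 9.37 CPM in Sham mice and 17.8, 42.4, 55.3 and 26.1 CPM among 5/6 Nx-HPi-Lp mice. Mice of the 5/6 Nx-HPi-Hp group had 18.5, 8.90, 37.1 and 8.80 CPM and the 5/6 Nx-LPi-Lp mice 101, 22.0, 63.1 and 38.8 CPM. Every 5/6 Nx-LPi-Lp and 5/6 Nx-HPi-Lp library lay above the Sham range, whereas 5/6 Nx-HPi-Hp mice 2 and 4 lay within it. Kng2 rose by 2.04 ± 0.36 (log2) in 5/6 Nx-HPi-Lp mice (edgeR adjusted p = 0.00158) and by 2.74 ± 0.44 in 5/6 Nx-LPi-Lp mice (adjusted p = 0.00349), and both calls held under every alternative run. For 5/6 Nx-HPi-Hp mice the value was 1.11 ± 0.46 (adjusted p = 0.0892), which passed without mouse 4 (adjusted p = 0.0268). Its close paralogue Kng1 could take reads from it and held 0 to 5.71 CPM.

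Otop1 (ENSMUSG00000051596, chr5:38275972-38304217), which encodes a proton channel found in brown fat, measured 11.8, 23.4, 23.5 and 19.5 CPM in Sham mice and 21.6, 35.1, 64.6 and 20.6 CPM among 5/6 Nx-HPi-Lp mice. It measured 60.7, 29.3, 64.4 and 21.7 CPM among 5/6 Nx-HPi-Hp mice and 216, 42.3, 124 and 71.3 CPM among 5/6 Nx-LPi-Lp mice. Only the last group lay wholly above Sham mice. Otop1 rose by 2.62 ± 0.46 (log2) in 5/6 Nx-LPi-Lp mice (edgeR adjusted p = 0.00402) and by 1.25 ± 0.37 in 5/6 Nx-HPi-Hp mice (adjusted p = 0.0289), and its value in 5/6 Nx-HPi-Lp mice was 0.92 ± 0.36 (adjusted p = 0.0659). The last passed without 5/6 Nx-HPi-Lp mouse 1 or 4. The 5/6 Nx-HPi-Hp call was lost on leaving out any one Sham mouse or 5/6 Nx-HPi-Hp mouse 1 or 3 (adjusted p from 0.0523 to 0.0743).

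Read by comparison, the count of genes above Sham mice was highest in the low-phosphate group. A gene was called at an edgeR adjusted p of at most 0.05 and a log2 fold change of 1 or more in size. In 5/6 Nx-LPi-Lp mice 8 of the 10 genes were called higher and none lower, where 8.79% of all 16071 genes tested were called higher and 2.08% lower. With libraries scaled to total counts, 1048 genes were called higher and 842 lower in place of 1413 and 335, and 8 of the 10 genes were still called. The median log2 fold change of the 10 genes was 2.28, against 0.02 over all genes tested. The exceptions were Dio2 (0.51 ± 0.38) and Prdm16 (-0.60 ± 0.23, adjusted p = 0.0666). All 8 calls held on leaving out any library, including 5/6 Nx-LPi-Lp mouse 2 with its heart RNA. Under other alternatives Ppargc1a lost its call in 2 (log2 down to 0.88) and Cpt1b in 2 (log2 down to 0.84). In the same comparison 8 of the 10 genes had groups that did not overlap, as did 35.6% of all genes tested.

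In 5/6 Nx-HPi-Hp mice 6 of the 10 genes (Ucp1, Cidea, Ppargc1a, Cpt1b, Adrb3 and Otop1) were called higher than in Sham mice and Elovl3 lower, where 9.41% and 2.75% of 15882 genes tested were. With libraries scaled to total counts, 972 genes were called higher and 892 lower in place of 1495 and 437, and 7 of the 10 genes were called. The median was 1.33 on the log2 scale, against 0.02 over all genes. The count changed with single libraries. The count was 3 without Sham mouse 1 or 4 or 5/6 Nx-HPi-Hp mouse 1 or 3, 2 without Sham mouse 2 or 3 and 5 without 5/6 Nx-HPi-Hp mouse 2, while it was 8 without 5/6 Nx-HPi-Hp mouse 4. Cidea and Adrb3 kept their calls on leaving out any one library. Without the libraries of mice 1 and 2, rich in heart markers, which leaves 2 mice, 0 of the 10 genes were called by edgeR and 6 of 16821 genes in all, with 5516 at an unadjusted p under 0.05. The log2 fold change of Ucp1 was then 1.53 and that of Adrb3 3.04. With all libraries, Ucp1 and Adrb3 were the 2 genes whose groups did not overlap, against 33.8% of all genes tested.

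In 5/6 Nx-HPi-Lp mice, which share the diet of the Sham mice, 3 of the 10 genes (Cidea, Dio2 and Kng2) were called higher and Prdm16 lower. Over all 16513 genes tested, 15.0% were called higher and 7.18% lower. The median of the 10 genes was 0.96 on the log2 scale, against -0.00275 over all genes. Within this group, Lep and Retn of white fat summed to 332 and 425 CPM in mice 1 and 4. In mice 2 and 3 they summed to 104 and 115 CPM. Without 5/6 Nx-HPi-Lp mice 1 and 4, also the libraries with the most sympathetic neuron RNA, 7 genes were called, Ucp1 (adjusted p = 0.00851), Elovl3 (0.0174) and Otop1 (0.00664) among them. That fit called 4149 of all 17476 genes tested, and the part of neuron or white fat RNA was not tested. Without mice 2 and 3 instead, Cidea lost its call (adjusted p = 0.0550), Ppargc1a gained one (log2 1.03, adjusted p = 0.00912), and the value of Elovl3 was -0.68. Groups did not overlap for 5 of the 10 genes (Cidea, Dio2, Kng2, Ppargc1a and Prdm16) and for 43.0% of all genes tested.

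**Figure D2:**
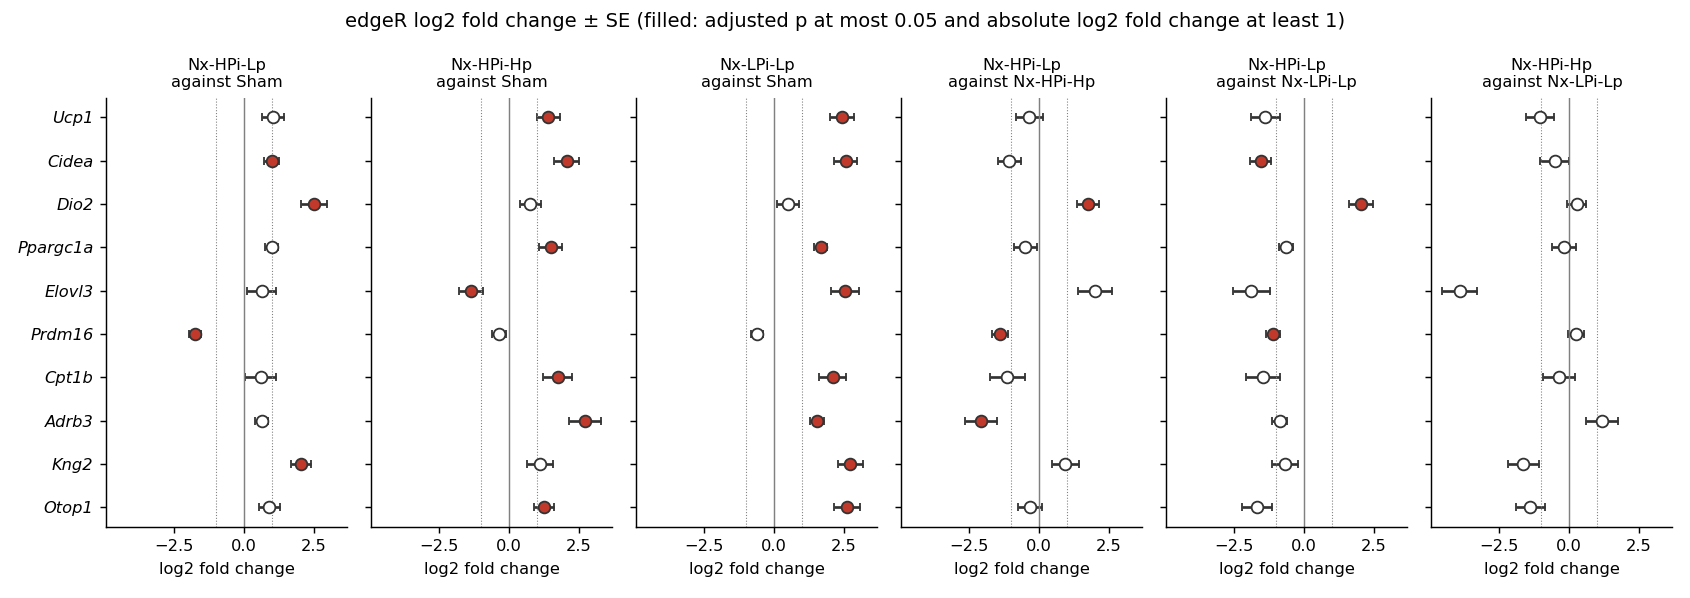
edgeR log2 fold changes with bars of 1 SE for the 10 genes (rows) in the 6 comparisons (panels), each from 4 against 4 libraries, with filled points where a gene was called and dotted lines at 1 and -1. Against Sham mice, 8 of the 10 genes were called higher in 5/6 Nx-LPi-Lp mice. In 5/6 Nx-HPi-Hp mice 6 were called higher and 1 lower, and in 5/6 Nx-HPi-Lp mice 3 higher and 1 lower. Of all genes tested, 8.79% were called higher and 2.08% lower in 5/6 Nx-LPi-Lp mice. These shares were 9.41% and 2.75% in 5/6 Nx-HPi-Hp mice and 15.0% and 7.18% in 5/6 Nx-HPi-Lp mice. These 3 comparisons share the Sham libraries.

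Among the nephrectomized groups, protein content was compared between the high-phosphate diets. In 5/6 Nx-HPi-Lp against 5/6 Nx-HPi-Hp mice Dio2 was called higher and Prdm16 and Adrb3 lower, where 5.01% of 16198 genes were called higher and 3.11% lower. Dio2 and Prdm16 were the 2 of the 10 genes whose groups did not overlap, as for 20.4% of all genes tested. Elovl3 was higher by 2.01 ± 0.61 but missed the threshold (edgeR adjusted p = 0.0561), as did Cidea (-1.04 ± 0.42, adjusted p = 0.125) and Ucp1 (-0.33 ± 0.47, adjusted p = 0.666). The count was 1 without 5/6 Nx-HPi-Lp mouse 3 or 4 or 5/6 Nx-HPi-Hp mouse 1 or 2. Without the heart-rich libraries 0 of the 10 genes were called, where only 10 of all 17400 genes tested were. The log2 fold change was then 1.54 for Dio2, -1.53 for Prdm16 and -2.39 for Adrb3. Without 5/6 Nx-HPi-Lp mice 2 and 3 the count was also 0 of the 10 genes, where 744 of 17123 genes were called. In that fit the same 3 values were 0.92, -1.37 and -2.06.

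Phosphate content was compared between the low-protein diets. With 5/6 Nx-HPi-Lp set against 5/6 Nx-LPi-Lp mice Dio2 was called higher and Cidea and Prdm16 lower, where 7.90% of 16253 genes were called higher and 3.98% lower. Ucp1 (-1.37 ± 0.51), Otop1 (-1.67 ± 0.53), Elovl3 (-1.86 ± 0.67) and Cpt1b (-1.47 ± 0.61) had lower values of similar size that missed the threshold (edgeR adjusted p = 0.0841, 0.0520, 0.0758 and 0.116). The count rose to 7 without 5/6 Nx-LPi-Lp mouse 2, the library with the most heart RNA, and to 6 without 5/6 Nx-HPi-Lp mouse 3, and it fell to 1 without 5/6 Nx-HPi-Lp mouse 4. Without 5/6 Nx-LPi-Lp mouse 2, Ucp1 (adjusted p = 0.0350), Elovl3 (0.0396), Otop1 (0.0289) and Adrb3 (0.0225) were called lower as well. All 3 calls were lost without 5/6 Nx-HPi-Lp mice 2 and 3 (adjusted p = 0.0537 for Dio2, 0.0570 for Cidea and 0.0643 for Prdm16). In that same fit Elovl3 (log2 -3.23, adjusted p = 0.0295) and Otop1 (log2 -2.45, adjusted p = 0.0447) were called lower instead. The groups did not overlap for Cidea, Dio2 and Prdm16, 3 of the 10 genes, and for 24.7% of all genes tested.

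With 5/6 Nx-HPi-Hp set against 5/6 Nx-LPi-Lp mice, edgeR called 0% of 15850 genes, with 1420 at an unadjusted p under 0.05, whereas DESeq2 called 78 genes and limma on log2(FPKM + 1) called 0. Elovl3 had the largest difference among the 10 genes (log2 -3.89 ± 0.63) and ranked sixth of all genes by p, yet its adjusted p was 0.290. It was the only one of the 10 whose groups did not overlap, at 4.82 to 19.7 CPM against 41.2 to 272 CPM, where 5.15% of genes in the table had no overlap. Elovl3 was called with no count filter (adjusted p = 0.00362), with a replicate block (0.0329) and by DESeq2 (3.5e-05).

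Adipocyte genes offered a measure of how much fat each library held. The 3 adipocyte markers Adipoq, Plin1 and Cidec summed to 116 to 384 CPM in Sham mice, 937 to 1604 CPM among 5/6 Nx-HPi-Lp mice, 335 to 2274 CPM among 5/6 Nx-HPi-Hp mice and 760.1 to 2239 CPM among 5/6 Nx-LPi-Lp mice. All 3 were called higher in each nephrectomized group than in Sham mice, with medians of 2.43, 2.64 and 2.58 on the log2 scale, and none was called between the nephrectomized groups. Of white fat genes, Retn rose by 4.28 ± 0.51 (log2) in 5/6 Nx-HPi-Lp mice (edgeR adjusted p = 0.000189) and was higher there than in 5/6 Nx-LPi-Lp mice by 1.97 ± 0.45 (adjusted p = 0.0174), and Lep there was 0.78 ± 0.49 against Sham mice (adjusted p = 0.231). Both genes were called higher than in Sham mice in the other nephrectomized groups, Lep by 2.19 ± 0.72 in 5/6 Nx-HPi-Hp mice (adjusted p = 0.0416) and by 2.05 ± 0.55 in 5/6 Nx-LPi-Lp mice (adjusted p = 0.0203).

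Set against these markers, Ucp1 per 100 CPM of adipocyte genes was 176, 195, 84.6 and 229 CPM in Sham mice and 133, 73.5, 134 and 271 CPM among 5/6 Nx-LPi-Lp mice. It was 29.4, 72.0, 137 and 38.0 CPM among 5/6 Nx-HPi-Lp mice and 58.3, 57.9, 63.4 and 156 CPM among 5/6 Nx-HPi-Hp mice. In number, 3 of the 4 libraries in each of the last 2 groups lay below every Sham library. The log2 ratio differed from that of Sham mice by -1.48 in 5/6 Nx-HPi-Lp mice and -1.08 in 5/6 Nx-HPi-Hp mice (both p = 0.0571 by a two-sided exact permutation test, 0.171 adjusted over 6 comparisons), and in 5/6 Nx-LPi-Lp mice it was -0.23 (exact p = 0.657). From 5/6 Nx-LPi-Lp to 5/6 Nx-HPi-Lp mice the difference was -1.25 (exact p = 0.143). No comparison of the ratio passed 0.05, and 4 against 4 libraries cannot give an exact p below 0.0286.

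**Figure D3:**
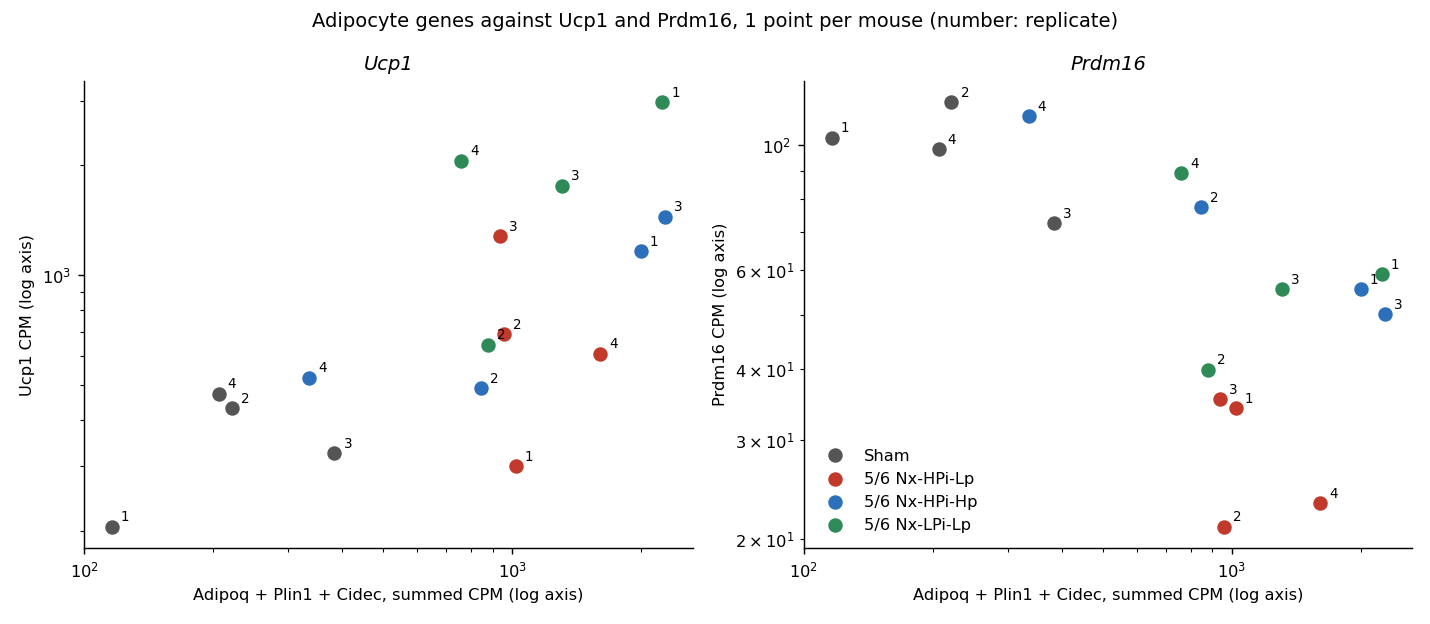
Ucp1 (left) and Prdm16 (right) in CPM against the summed CPM of Adipoq, Plin1 and Cidec in the same library, on log axes, with 1 numbered point per mouse and a colour per group. The 4 Sham libraries lie at 116 to 384 CPM of adipocyte genes, and 11 of the 12 nephrectomized libraries lie to their right. Prdm16 lies lowest in the 5/6 Nx-HPi-Lp libraries.

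Within a library the 10 genes did not keep fixed proportions to Ucp1. Elovl3 per 100 CPM of Ucp1 was 0.550, 0.983, 1.37 and 2.33 CPM among 5/6 Nx-HPi-Hp mice, below all 12 other libraries, which ran from 3.24 to 11.8. Kng2 per 100 CPM of Ucp1 was 5.95, 6.16, 4.32 and 4.27 CPM among 5/6 Nx-HPi-Lp mice, above all 12 others, which ran from 1.59 to 3.59. Dio2 was 17.5, 18.8, 13.6 and 10.9 CPM per 100 CPM of Ucp1 in the same mice, and outside that group 1 Sham library (14.5) reached this range. Otop1 was the steadiest of the 4, at 3.39 to 7.28 CPM in all 16 libraries with overlap of all groups. These ratios were chosen after their values were seen and were not tested.

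**Figure D4:**
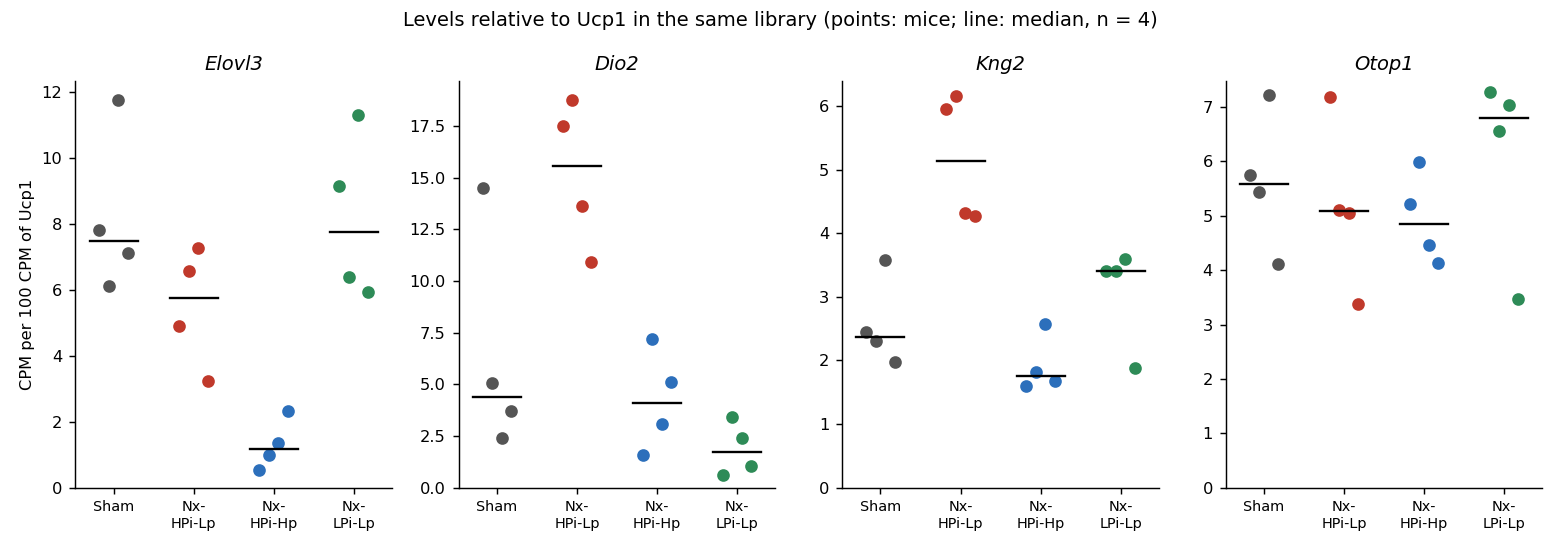
CPM of Elovl3, Dio2, Kng2 and Otop1 per 100 CPM of Ucp1 in the same library (linear axis from 0), with 1 point per mouse and a line at the median of each group of 4. Elovl3 is lowest in the 5/6 Nx-HPi-Hp libraries (0.550 to 2.33) and Kng2 highest in the 5/6 Nx-HPi-Lp libraries (4.27 to 6.16), while Otop1 overlaps in all groups.

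Likeness to Ucp1 was measured as Pearson r of log2(CPM + 1) over the 16 libraries among the 13046 genes whose mean reached 1 FPKM, as a description, since the libraries share groups and fat content. The 8 most alike were Pnpla3 (0.944), Otop1 (0.944), Gpd1 (0.941), Agpat2 (0.939), Pygl (0.931), Sh2b2 (0.929), Mgll (0.928) and Clstn3 (0.928). Several handle lipid or glycogen, such as the acyltransferase Agpat2, the monoglyceride lipase Mgll and the glycogen phosphorylase Pygl. Otop1 was among them, and Cpt1b, with a mean under 1 FPKM, was not ranked. Cidea had r = 0.880 (rank 62) and Kng2 0.863 (rank 108), then came Adrb3 (0.711), Ppargc1a (0.641) and Elovl3 (0.632). Dio2 (0.112) and Prdm16 (-0.176) bore little likeness to Ucp1. With group means removed, Kng2 had 0.904, Otop1 0.875 and Elovl3 0.813, and Ppargc1a dropped to 0.217.

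Other genes of the thermogenic pathway were followed through 9 lists. Their counts are to be read against all genes tested, of which 8.79% were called higher and 2.08% lower than in Sham mice in 5/6 Nx-LPi-Lp mice, 9.41% and 2.75% in 5/6 Nx-HPi-Hp mice, and 15.0% and 7.18% in 5/6 Nx-HPi-Lp mice. Of 15 genes of fatty acid uptake and oxidation, 14 were called higher than in Sham mice in 5/6 Nx-LPi-Lp mice, 14 in 5/6 Nx-HPi-Hp mice and 7 in 5/6 Nx-HPi-Lp mice, with medians of 2.02, 1.34 and 0.93 on the log2 scale. Leaving out 1 library gave 14 calls throughout in the first, 3 to 14 in the second (3 without Sham mouse 2, 4 without Sham mouse 1, 6 without Sham mouse 4 or 5/6 Nx-HPi-Hp mouse 1 or 3) and 3 to 8 in the third (3 without Sham mouse 1 or 5/6 Nx-HPi-Lp mouse 3, 4 without Sham mouse 4). Without both 5/6 Nx-HPi-Lp mice 2 and 3 the last count was 3. Cd36, which takes up fatty acids, rose by 2.61, 2.00 and 2.29, and the acyl-CoA synthetase Acsl1 by 2.02, 1.56 and 1.53. In 5/6 Nx-HPi-Lp against 5/6 Nx-LPi-Lp mice 7 of the 15 were called lower and none higher, with a median of -1.12, where 3.98% of all genes tested were called lower. That count was 0 without 5/6 Nx-HPi-Lp mouse 4, 2 or 3 without 5/6 Nx-HPi-Lp mouse 1 or 2 or 5/6 Nx-LPi-Lp mouse 1 or 3, and at most 9.

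Of 12 brown fat mitochondrial and lipid effectors, 9, 8 and 6 were called higher than in Sham mice in 5/6 Nx-LPi-Lp, 5/6 Nx-HPi-Hp and, last, 5/6 Nx-HPi-Lp mice, and none lower. Leaving out 1 library gave 9 calls in either direction in every case, 4 to 8 (4 without Sham mouse 2, 5 without Sham mouse 1) and 4 to 7. Without 5/6 Nx-HPi-Lp mice 2 and 3, 4 of the 12 were called higher and 2 lower in 5/6 Nx-HPi-Lp than in Sham mice. Plin5, which coats droplets beside mitochondria, rose by 2.73, 1.90 and 1.69. Ucp2, a relative of Ucp1 that is also made by immune cells, was called higher in 5/6 Nx-HPi-Lp mice alone (2.23, against 0.67 and 0.50 in the other 2 groups), and it was also higher there than in 5/6 Nx-LPi-Lp (1.79) and 5/6 Nx-HPi-Hp mice (1.59). The 6 macrophage markers rose in the same 3 comparisons, 6 of 6 in each, and summed to 575 to 2114 CPM among 5/6 Nx-HPi-Lp mice against 169 to 497 CPM elsewhere. Against 5/6 Nx-LPi-Lp mice, 8 of the 12 effectors were called lower and Ucp2 higher in 5/6 Nx-HPi-Lp mice, where 3.98% and 7.90% of all genes were. These 9 calls became 3 without 5/6 Nx-HPi-Lp mouse 4, 4 without 5/6 Nx-HPi-Lp mouse 2 or 5/6 Nx-LPi-Lp mouse 3, and at most 10, and none was lower without 5/6 Nx-HPi-Lp mice 1 and 4.

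Of the transcriptional regulators 8 of 12, 7 of 12 and 6 of 13 tested genes were called higher than in Sham mice in 5/6 Nx-LPi-Lp, 5/6 Nx-HPi-Hp and, last, 5/6 Nx-HPi-Lp mice and none lower. Leaving out 1 library gave 7 to 9, 5 to 9 and 5 to 7 calls in either direction. Irf4, a factor that induces thermogenic genes, rose by 1.72, 2.28 and 2.49 in that order. Lhx8, a marker of brown adipocytes, rose by 2.31 in 5/6 Nx-HPi-Lp mice and did not pass the count filter in the other 2 comparisons. Of 13 adrenergic lipolysis genes, 10, 7 and 8 were called higher, among them the hormone-sensitive lipase Lipe (2.45, 2.39 and 2.07). With 5/6 Nx-HPi-Lp set against 5/6 Nx-LPi-Lp mice only 1 of the 13, Adrb1 (-1.38), was called lower, a gene named after its values were seen, and 0 were called without 5/6 Nx-HPi-Lp mouse 2 or 4 or 5/6 Nx-LPi-Lp mouse 1 or 3.

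Creatine and calcium cycling are heat-making routes that do not use Ucp1. Of the creatine and calcium cycling genes 3 of 9 rose and 3 fell in 5/6 Nx-HPi-Lp against Sham mice. The creatine synthesis enzyme Gatm rose by 3.06 and the mitochondrial creatine kinase Ckmt1 by 3.55, whereas Gamt, the next enzyme of creatine synthesis, fell (-1.64), as did the calcium pump Atp2a2 (-1.57), which smooth muscle also makes. Kidney tubule markers summed to 9.21 to 27.0 CPM among 5/6 Nx-HPi-Lp mice and at most 7.48 CPM elsewhere. Pancreas acinar markers summed to 13.4 to 124 CPM among these mice and at most 23.7 CPM elsewhere. In this comparison 8 of 9 sympathetic neuron markers tested were called higher. The part of such RNA in these changes was not tested. In all, 2 of 11 were called higher in 5/6 Nx-HPi-Hp and 1 of 11 in 5/6 Nx-LPi-Lp mice, with 1 to 4 and 0 to 1 called on leaving out 1 library (4 without 5/6 Nx-HPi-Hp mouse 4, 1 without Sham mouse 1, 2 or 4 or 5/6 Nx-HPi-Hp mouse 1 or 2, and 0 without Sham mouse 2, 3 or 4 or 5/6 Nx-LPi-Lp mouse 2). Beige markers were mixed, with Car4 higher in all 3 groups (2.22, 2.38 and 3.02 in 5/6 Nx-LPi-Lp, 5/6 Nx-HPi-Hp and, last, 5/6 Nx-HPi-Lp mice) and Tmem26 lower (-1.34, -2.08 and -1.86).

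Secreted factors, thyroid hormone genes and kinin genes made up the remaining lists. In 5/6 Nx-LPi-Lp, 5/6 Nx-HPi-Hp and, last, 5/6 Nx-HPi-Lp mice Nrg4, a factor that brown fat releases, rose by 2.61, 2.65 and 1.496 and Vegfa by 1.61, 1.502 and 1.41. The thyroid hormone receptors Thra (-1.43) and Thrb (-1.57) fell against Sham mice on the same comparison in which Dio2 rose, that of 5/6 Nx-HPi-Lp. Of 5 kallikrein-kinin genes tested there, 3 rose, among them Kng1 (3.67 ± 0.98) and the inducible kinin receptor Bdkrb1 (3.22). Kng1 was near the floor and did not pass the count filter against Sham mice in the other nephrectomized groups. Bdkrb1 was also higher than in 5/6 Nx-LPi-Lp (2.98) and 5/6 Nx-HPi-Hp mice (2.70). Kidney tubule markers summed to 9.21 to 27.0 CPM among 5/6 Nx-HPi-Lp mice and 2.39 to 5.51 CPM in Sham mice. Liver markers summed to 8.53 to 31.5 CPM and 7.05 to 29.6 CPM in these groups. Their part in the values of the kinin genes was not tested. Without the heart-rich libraries no gene of these 9 lists was called by edgeR in 5/6 Nx-HPi-Hp against Sham mice. That fit called only 6 of all 16821 genes tested, and its median log2 fold change was 1.33 for oxidation genes and 1.46 for effectors. In 5/6 Nx-LPi-Lp mice 14 of 15 oxidation genes, 9 of 12 effectors and 8 of 12 regulators were called, where 1648 of 16410 genes were.

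**Figure D5:**
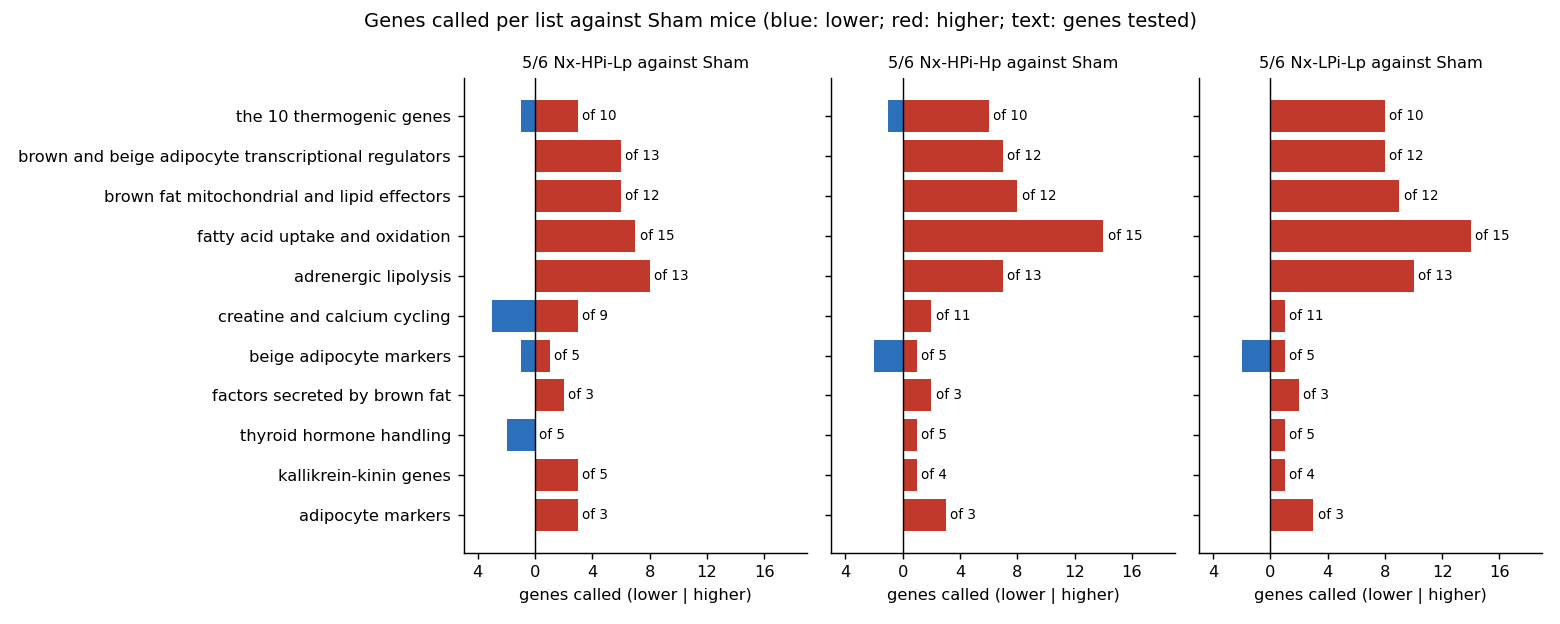
Genes called higher (red, to the right) and lower (blue, to the left) than in Sham mice in each list, with the number tested beside each bar, for the 3 nephrectomized groups (panels). Fatty acid oxidation had 14 of 15 genes called higher in the 5/6 Nx-LPi-Lp and 5/6 Nx-HPi-Hp panels and 7 of 15 in the 5/6 Nx-HPi-Lp panel. Of all genes tested, 8.79%, 9.41% and 15.0% were called higher in these panels, in that order.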

How the data were processed

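RNA from 16 aortas was sequenced, with 1 library per mouse and 4 per group, so p-values measure the spread between mice of 1 experiment. As the authors describe, reads were aligned to mm10 with HISAT2 and counted per gene with featureCounts 1.5.0-p3 (options for strand and multiple matches not given in the sources used here), and the deposited count table holds raw counts. The deposited FPKM table was made by the authors from these counts, gene length and library totals, which were already scaled between libraries by size factors.

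The 10 genes and the gene lists were chosen with earlier results of these data known. Counts were kept by filterByExpr, scaled by TMM and tested with the quasi-likelihood test of edgeR 4.0.16 (R 4.3.3) on the 8 libraries of each comparison, with Benjamini-Hochberg adjustment over all genes kept. Calls needed an adjusted p no higher than 0.05 together with a log2 fold change of 1 or more in size. CPM used TMM-scaled totals. Ucp1 over adipocyte genes was tested on log2 CPM plus 0.1 with a two-sided exact permutation test. Alternatives were RLE and total-count scaling, a replicate block, a filter of 10 counts per library or none, a joint fit of the 16 libraries, DESeq2 1.42.0, limma 3.58.1 on log2 FPKM plus 1 or 0.1, mitochondrial genes left out, no fold threshold, thinned counts and each library left out. The scripts were tested on simulated counts. Named pathway genes were the 2 called genes with the largest rise and the 2 with the largest fall per list in 5/6 Nx-HPi-Lp against Sham mice. A gene that this rule names is not reported here. None of the 24 pairs of libraries within groups agreed within sampling noise.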

Additional observations from a re-analysis of the deposited data

Results flagged for a closer look

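Of 80 groups of 4 libraries examined for a library far from the others, 4 met the criterion, and chance alone gives about 1 in 20. Cpt1b was 0.694 CPM in Sham mouse 1, below 1.502 to 1.62 CPM in the other Sham mice. The log2 ratio of Ucp1 to the adipocyte genes was 0.64 in 5/6 Nx-HPi-Hp mouse 4, against -0.79 to -0.66 in the others of its group, and that library also had the lowest adipocyte sum (335 CPM) and the highest smooth muscle sum (23205 CPM) of its group. The log2 ratio of Kng2 to the adipocyte genes was -5.03 in Sham mouse 3, against -4.51 to -4.45 in the others. The log2 ratio of Otop1 to them was -4.37 in 5/6 Nx-LPi-Lp mouse 2, against -3.41 to -3.37 in the others, and that library had the most heart muscle RNA of the 16 (6286 CPM).

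Elovl3 stood out because all 5/6 Nx-HPi-Hp libraries lay below the Sham mean of 28.6 CPM and all 5/6 Nx-LPi-Lp libraries above it. The log2 difference of the 2 groups was -3.89, and the test of that difference missed the threshold (edgeR adjusted p = 0.290). Their diets differ in both phosphorus and protein, which cannot be told apart.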

How the results depend on the processing

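Of 1368 member fold changes recomputed under an alternative, 1202 kept their direction and side of the threshold, 105 lost a call, 55 gained one and 6 reversed, and the cause was not tested. Dropping single libraries gave 3 to 6 of the 10 genes called in 5/6 Nx-HPi-Lp against Sham mice, 2 to 8 in 5/6 Nx-HPi-Hp against Sham, 8 to 8 in 5/6 Nx-LPi-Lp against Sham, 1 to 4 in 5/6 Nx-HPi-Lp against 5/6 Nx-HPi-Hp, 1 to 7 in 5/6 Nx-HPi-Lp against 5/6 Nx-LPi-Lp and 0 in 5/6 Nx-HPi-Hp against 5/6 Nx-LPi-Lp. In 5/6 Nx-HPi-Hp against Sham mice the count of 7 became 4 with a replicate block, 4 with limma on log2(FPKM + 1) or log2(FPKM + 0.1), and 0 with limma and no filter or without the heart-rich libraries, where 2 libraries face 4. Without the heart-rich libraries 6 of all 16821 genes tested were called there. In 5/6 Nx-HPi-Lp against 5/6 Nx-HPi-Hp mice the count of 3 became 1 with the block, 5 with DESeq2, and 0 with limma and no filter, without the heart-rich libraries or without 5/6 Nx-HPi-Lp mice 2 and 3. Of all genes tested, 10 of 17400 were called without the heart-rich libraries and 744 of 17123 without 5/6 Nx-HPi-Lp mice 2 and 3. In 5/6 Nx-HPi-Lp against 5/6 Nx-LPi-Lp mice the count of 3 became 5 with no count filter or with all 16 libraries, 1 with limma and no filter, 7 without the heart-rich library and 1 without 5/6 Nx-HPi-Lp mice 1 and 4. The count of 0 in 5/6 Nx-HPi-Hp against 5/6 Nx-LPi-Lp mice became 1 with no filter, the block or DESeq2. The count of 4 in 5/6 Nx-HPi-Lp against Sham mice became 7 without 5/6 Nx-HPi-Lp mice 1 and 4, where 4149 of 17476 genes were called. Sets of libraries were left out after seeing the data.

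The reversed values were Ucp1 (0.12) and Otop1 (0.18) in 5/6 Nx-HPi-Lp against 5/6 Nx-HPi-Hp mice without 5/6 Nx-HPi-Lp mice 1 and 4, and Elovl3 in 5/6 Nx-HPi-Lp against Sham mice without 5/6 Nx-HPi-Lp mice 2 and 3 (-0.68), with a range of -0.020 to 0.96 over single libraries. In 5/6 Nx-HPi-Hp against 5/6 Nx-LPi-Lp mice that range was -0.50 to 0.13 for Ppargc1a and -0.60 to 0.25 for Cpt1b. The log2 ratio of Ucp1 to adipocyte genes in 5/6 Nx-LPi-Lp against Sham mice ran from -0.56 to 0.071, and no ratio passed 0.05 under any setting. Same-numbered libraries of different groups correlated at -0.30 to 0.57 and differently numbered ones at -0.50 to 0.56. The labels do not say that the numbers pair the mice. With the block 4, 4, 8, 1, 2 and 1 genes were called in the 6 comparisons. Scaling to total counts put the median of all genes at -0.14, -0.19 and -0.22 in 5/6 Nx-HPi-Lp, 5/6 Nx-HPi-Hp and, last, 5/6 Nx-LPi-Lp against Sham mice. Cpt1b, with 18 to 200 counts per library, is the gene most limited by depth.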
